A study of Mus musculus with 6 samples.

Results

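Collagen genes were examined in back skin from C57/BL mice treated with cyclosporin A, in comparison with mice of the same strain given ethanol; the labels give no age or dose. The genes were chosen by name: every probe whose accession maps to a collagen chain symbol (Col, a number, a, a number) was taken, and Col17a1 was left out. The rule gave 57 probes of 37 genes, of 41174 probes on the array. A probe was carried forward if both arrays of some day read it well above background in either channel, and 46 collagen probes of 33 genes passed, among 22759 genes tested in all. Those 33 genes comprised 11 of 11 fibrillar chains, 9 of 9 basement membrane chains and 13 of 17 minor chains. Col6a6, Col9a1, Col10a1 and Col19a1, all minor, did not pass, and no probe was named for Col6a3, Col6a4, Col6a5, Col12a1, Col20a1 or Col22a1.

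Collagens are triple helices of 3 chains that are secreted as precursors, trimmed, assembled and crosslinked outside the cell. Fibrillar collagens, mainly types I, III and V in skin, form the ropes of the dermis and come largely from fibroblasts. Type IV chains form the sheet under the epidermis and around follicles, vessels and fat cells, type VII anchors that sheet to the dermis, and the minor types decorate fibrils, form beaded filaments or span cell membranes. Cyclosporin A binds cyclophilins, among them cyclophilin B, a folding enzyme of the procollagen chain, and its complex with cyclophilin A blocks the phosphatase calcineurin, which activates NFAT transcription factors.

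The study used 6 dual-colour arrays, 2 for each of days 2, 4 and 7, and each array set 1 cyclosporin A sample (Cy5) against 1 ethanol sample (Cy3) of the same day. Unless a channel is named, each value is the log2 ratio of the cyclosporin A over the ethanol signal, and per-array values are given in the order replicate 1, replicate 2. The samples are called biological replicates in the series text, but no label ties them to animals, so the p-values rest on the spread among these samples alone, which may be technical. The arrays of days 2 and 4 shared 1 slide and those of day 7 lay on another, so slide and day 7 cannot be told apart, and since no dye was swapped, a gene's own dye effect and the treatment cannot be told apart either. The share of probes well above background was 43.3% to 56.4% with ethanol and 59.7% to 68.8% with cyclosporin A, and the small number of arrays limits the precision. The skin label was borne out by its markers: 8 of 8 basal keratinocyte genes, 5 of 5 suprabasal genes and 13 of 14 fibroblast genes tested were well above background on all arrays in each channel.

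The 2 arrays of day 2 gave different sizes for the dermal collagens. On replicate 1, 7 fibrillar chains, among them those of types I, III and V, were higher with cyclosporin A by 0.86 to 1.74, while on replicate 2 the same 7 lay between -0.33 and 0.10. No collagen was called at day 2 (limma, adjusted p under 0.05), against 0% of all genes, and 2 of 33 (Col24a1 and Col3a1) had an unadjusted p under 0.05, against 9.69% of all genes. Over the 32 collagens with a ratio on both arrays, 8 had the same sign (25%), and the ratios correlated at r = -0.50. For all genes tested the share was 55.2% and the correlation r = 0.01. Both sets of values hold for ratios after loess. When each array was only centred on its median, 28 of the 32 collagens had the same sign (87.5%) at r = 0.57, against 84.5% and r = 0.59 for all genes, and the same 7 chains lay between 1.72 and 2.50 on replicate 1 and between 0.39 and 1.23 on replicate 2. The difference between the arrays in these 7 chains thus stood under both scalings, and the signs did not.

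**Figure D1:**
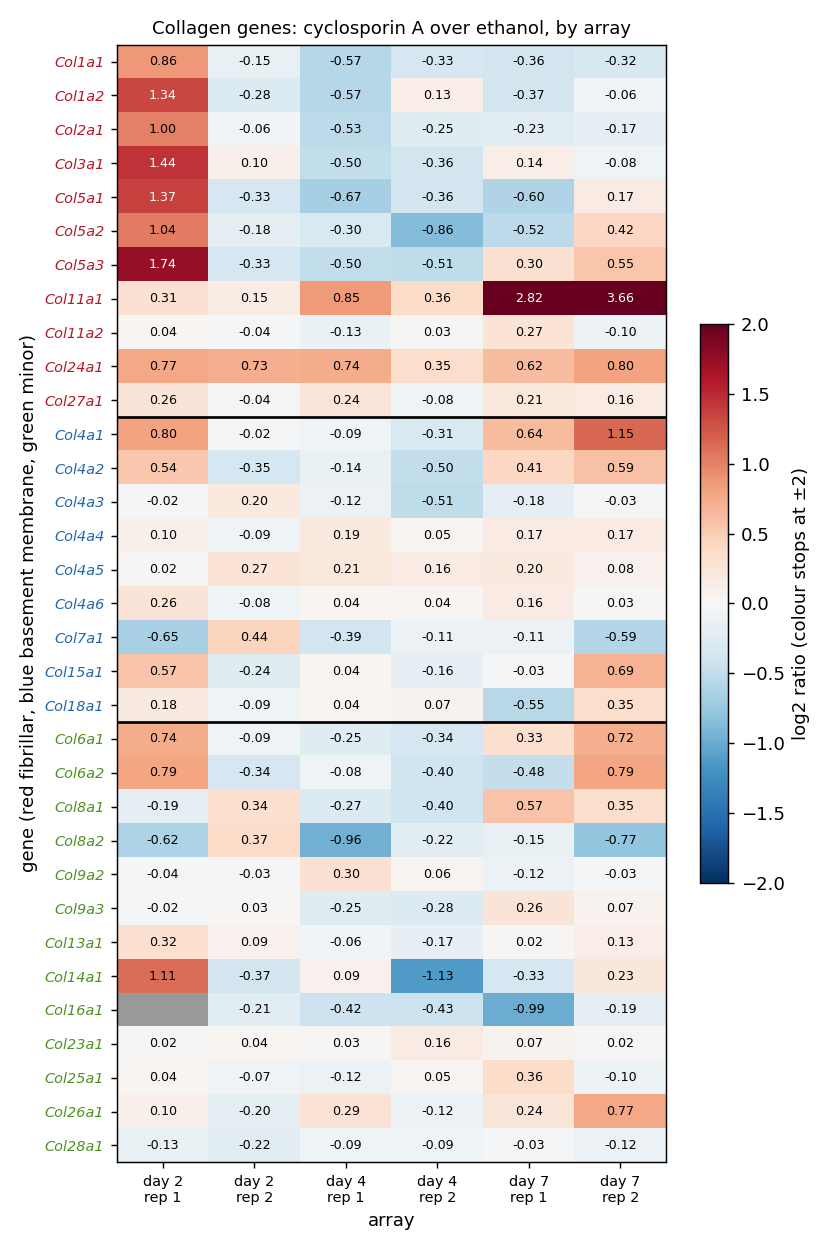
Log2 ratio of cyclosporin A over ethanol for each of the 33 collagen genes (rows, by class) on each of the 6 arrays (columns), with the value printed in each cell; red is higher with cyclosporin A, blue lower, and grey marks a spot that was left out. The upper left column, day 2 replicate 1, is red for 7 fibrillar chains from Col1a1 at 0.86 to Col5a3 at 1.74, and the Col11a1 row reaches 2.82 and 3.66 on the day 7 arrays.

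Type I collagen is the main protein of dermal fibrils. Col1a1, its alpha 1 chain, measured 0.86 and -0.15 at day 2, -0.57 and -0.33 at day 4, and -0.36 and -0.32 at day 7. Col1a2, its alpha 2 chain, measured 1.34 and -0.28, then -0.57 and 0.13, then -0.37 and -0.06. Day 2 replicate 1 was thus the highest of the 6 arrays for both chains, and the only array on which Col1a1 was above 0. Type III collagen is co-assembled with type I and is prominent in young and healing skin. Its single chain, Col3a1, gave 1.44 and 0.10, then -0.50 and -0.36, then 0.14 and -0.08.

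Type V collagen sits inside type I fibrils and sets their diameter. Col5a1 measured 1.37 and -0.33 at day 2, -0.67 and -0.36 at day 4, and -0.60 and 0.17 at day 7. Col5a2 measured 1.04 and -0.18, then -0.30 and -0.86, then -0.52 and 0.42. Both chains were highest on day 2 replicate 1, below 0 on the other array of that day and below 0 on both arrays of day 4. Col5a3, a further type V chain, had the highest ratio of any collagen at day 2, 1.74 on replicate 1, against -0.33 on replicate 2.

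Type II collagen is the collagen of cartilage. The Col2a1 probe with the stronger signal nevertheless ran beside Col1a1, at 1.00 and -0.06, then -0.53 and -0.25, then -0.23 and -0.17. Its dimmer probe stayed between -0.17 and 0.16 on the 6 arrays. Of the 8 cartilage markers on the array 4 passed the filter, and whether the brighter probe also takes up RNA of other fibrillar chains was not tested.

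The gap between the day 2 arrays, replicate 1 minus replicate 2, exceeded 1 for 9 of 32 collagens (28.1%), against 2.03% of all genes tested. Those 9 were Col1a1, Col1a2, Col2a1, Col3a1, Col5a1, Col5a2 and Col5a3 among the fibrillar chains, with Col6a2 and Col14a1 among the minor ones. By class after loess, 7 of 11 fibrillar, 0 of 9 basement membrane and 2 of 12 minor chains exceeded it, and the class medians of the gap were 1.06, 0.27 and 0.10. This count takes 1 direction only. The lowest gaps of the classes were 0.04, -1.09 (Col7a1) and -1 (Col8a2). With median centring the gap exceeded 1 for 8 of 32 (25%), against 2.11% of all genes, and for 6 of 11 fibrillar chains. All 9 of the loess count were among the 16 collagens with the brighter probes (mean log2 signal at or above 9.77), whose median gap was 1.04. The 16 dimmer ones had a median gap of 0.08 and none above 0.35, the lowest being -1. These counts use the brightest probe of each gene. Dimmer passing probes of Col1a1 read 0.50 and -0.45, and 0.13 and -0.76, and that of Col3a1 0.87 and -0.34. Those of Col5a1, Col5a3 and Col2a1 read -0.03 and -0.36, 0.37 and 0.02, and 0.15 and -0.01. Of these only Col3a1 kept a gap above 1.

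A few collagens ran the other way on the same arrays. Col7a1, the chain of the anchoring fibrils, measured -0.65 and 0.44 at day 2, and Col8a2, a network-forming short chain, measured -0.62 and 0.37. Col8a1, the partner chain of Col8a2, gave -0.19 and 0.34. These 3 were the lowest collagens of replicate 1 and the highest of replicate 2 but for Col24a1. Their day 2 means were -0.10, -0.13 and 0.08 after loess and 0.77, 0.38 and 0.78 after median centring.

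**Figure D2:**
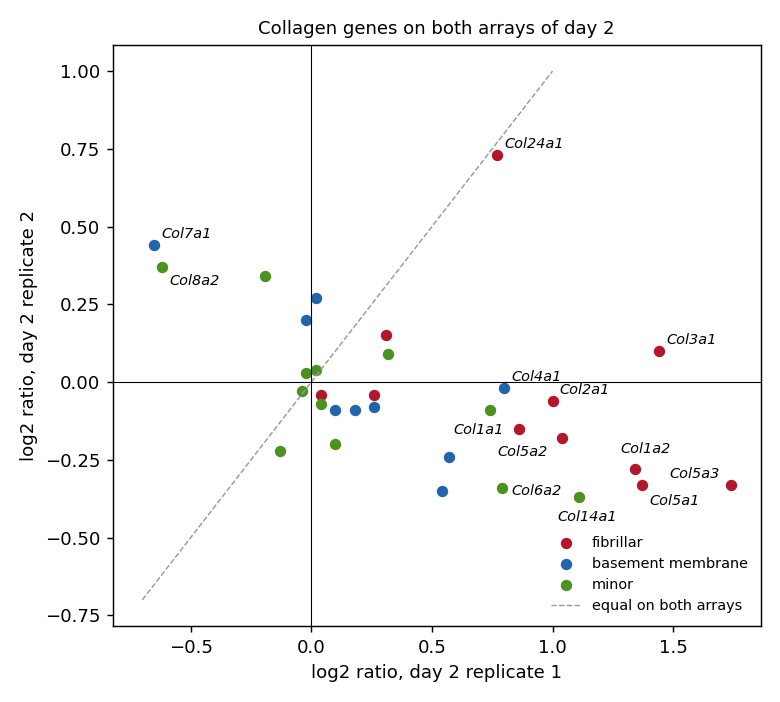
Log2 ratio after loess on day 2 replicate 1 (horizontal) against day 2 replicate 2 (vertical) for the 32 collagen genes with both values, coloured by class; the dashed line marks equal ratios. A group of 7 fibrillar chains lies far to the right, from 0.86 to 1.74, at or below 0.10 on the vertical axis, Col7a1 and Col8a2 lie at the upper left, and Col24a1 lies on the line.

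Markers of some skin cell types also parted between these arrays. After loess the median of 14 fibroblast markers was 0.67 on replicate 1 and -0.09 on replicate 2, that of 6 macrophage markers 0.65 and -0.44, and that of 10 adipocyte markers 0.39 and -0.46. Keratinocyte markers were opposite, with medians of -0.49 and 0.30 for 8 basal genes and -0.31 and 0.78 for 5 suprabasal genes. After median centring all 5 medians were above 0 on both arrays, at 1.37 and 0.70 for fibroblasts, 1.32 and 0.36 for macrophages, 1.21 and 0.46 for adipocytes, 0.41 and 1.3 for basal and 0.60 and 1.76 for suprabasal keratinocytes, with the same array higher for each list. The other marker lists parted less after loess. Medians were -0.42 and -0.09 for 7 smooth muscle and pericyte markers and -0.24 and 0.06 for 11 skeletal muscle markers. Those of 5 Schwann cell and 10 endothelial markers were 0.04 and 0.15, and -0.02 and -0.26. For 10 follicle and 4 cartilage markers they were 0.32 and 0.18, and -0.28 and -0.15. Over the 6 arrays the median log2 intensity of the fibroblast list ranged from 12.42 to 12.78 in the ethanol channel and from 12.18 to 12.64 in the cyclosporin A channel. On day 2 replicate 1 it was 12.64 with ethanol and 12.53 with cyclosporin A, though the median ratio there was 0.67. A median of intensities thus did not follow the ratios of the list, and these ranges do not show how steady its genes were. In tissue RNA, fewer cells of a type and less RNA per cell cannot be told apart, and the part of cell makeup in the collagen ratios of day 2 was not tested.

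At day 4 the ratios of 6 of 11 fibrillar collagens were below 0 on both arrays after loess, by small amounts that no test called. The fibrillar median was -0.50 and -0.25 on the 2 arrays and -0.39 for the day means after loess, against 0.04 for all genes, but 0.23 against 0.27 with median centring. With the mean of all probes of a gene in place of the brightest it was -0.22 at day 4 and 0.27 at day 2. Centring in place of loess raised the median of all genes to 0.39, 0.27 and 0.17 at days 2, 4 and 7, and the fibrillar median at day 2 was then 1.18 (0.47 after loess). Col1a1, below 0 at days 4 and 7 after loess, was at 0.68 and 0.65 after centring. No collagen was called at day 4 (limma), against 0.00439% of all genes, and Col11a1 and Col24a1, both higher, had an unadjusted p under 0.05, as did 15% of all genes.

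By simple counts, 18 of 33 collagens (54.5%) were below 0 on both day 4 arrays after loess, against 27.5% of all genes, and 8 (24.2%) were above 0 on both, against 38.6%. With median centring 6 and 13 of the 33 were below 0 on the first and the second array. The 18 included Col1a1, Col3a1 and all 3 type V chains, Col4a1, Col4a2, Col6a1 and Col6a2. The lowest fibrillar means at day 4 were -0.58 ± 0.33 (SE, n = 2) for Col5a2 and -0.52 ± 0.38 for Col5a1, and the adjusted p were 0.464 and 0.564. The lowest minor chains were Col8a2, at -0.96 and -0.22, and Col14a1, a fibril-associated chain, at 0.09 and -1.13.

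Between day 2 and day 4 the ratio fell by 1.20 for Col3a1, by 0.85 for Col2a1 and by 0.80 for Col1a1, and these 3 had an unadjusted p under 0.05, as did 2.24% of all genes. None of the 33 collagens passed after adjustment (limma; 0% of all genes did).

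**Figure D3:**
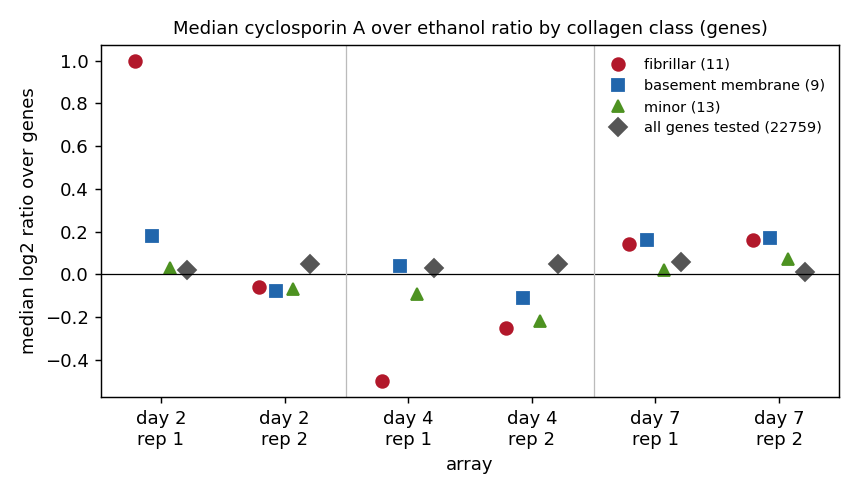
Median log2 ratio of cyclosporin A over ethanol over the genes of each collagen class, and over all genes tested, on each of the 6 arrays (horizontal axis), with the number of genes in the legend. The fibrillar median is 1.00 on day 2 replicate 1 and -0.06 on replicate 2, then -0.50 and -0.25 at day 4, while the other classes stay between -0.22 and 0.18 and all genes between 0.01 and 0.06.

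The channels taken singly showed how each arm moved over days. In the ethanol arm all 11 fibrillar chains were higher at day 4 than at day 2, by a median of 0.70, and all 11 were higher at day 7 than at day 2, by a median of 0.31. In the cyclosporin A arm the fibrillar medians of the same differences were -0.09 and -0.17, with 4 and 5 of 11 chains above 0. For all genes the medians were 0 and 0 in the ethanol channel and 0 and -0.02 in the cyclosporin A channel. The difference between the arms was tested as the change of the ratio, given above, and called no collagen between days 2 and 4.

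Col1a1 shows the pattern in log2 intensities. In ethanol skin it measured 15.92 and 16.21 at day 2, 16.77 and 16.66 at day 4, and 16.51 on both arrays of day 7, so that days 4 and 7 lay above day 2 with no overlap. In cyclosporin A skin it measured 16.78 and 16.06, then 16.20 and 16.33, then 16.14 and 16.19, and the day 2 arrays spanned the others. Col5a3 went from 10.84 and 11.27 in ethanol skin at day 2 to 12.32 and 12 at day 4, then 11.45 and 11.53 at day 7. Its cyclosporin A values of 12.58 and 10.94 at day 2 were the highest and the lowest of that channel.

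Both ethanol arrays of day 4 were above both of day 2 for 17 of 32 collagens (53.1%), against 22.3% of all genes, and below both for 2 (6.25%), against 22.3%. In the cyclosporin A channel 6 of 32 were above (18.8%, against 16.9% of all genes) and 1 was below (3.12%, against 14.1%). Tested gene by gene with limma, 0 collagens were called between days 2 and 4 in the ethanol channel, where 12 had an unadjusted p under 0.05 (0.00439% and 8.83% of all genes), and 0 in the cyclosporin A channel, where 0 had an unadjusted p under 0.05 (0% and 1.44%). Between days 2 and 7, 0 were called in the ethanol channel and 10 had an unadjusted p under 0.05 (0.0352% and 11.3% of all genes). A single channel carries array and slide effects that a ratio cancels, and their part in these level changes was not tested.

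**Figure D4:**
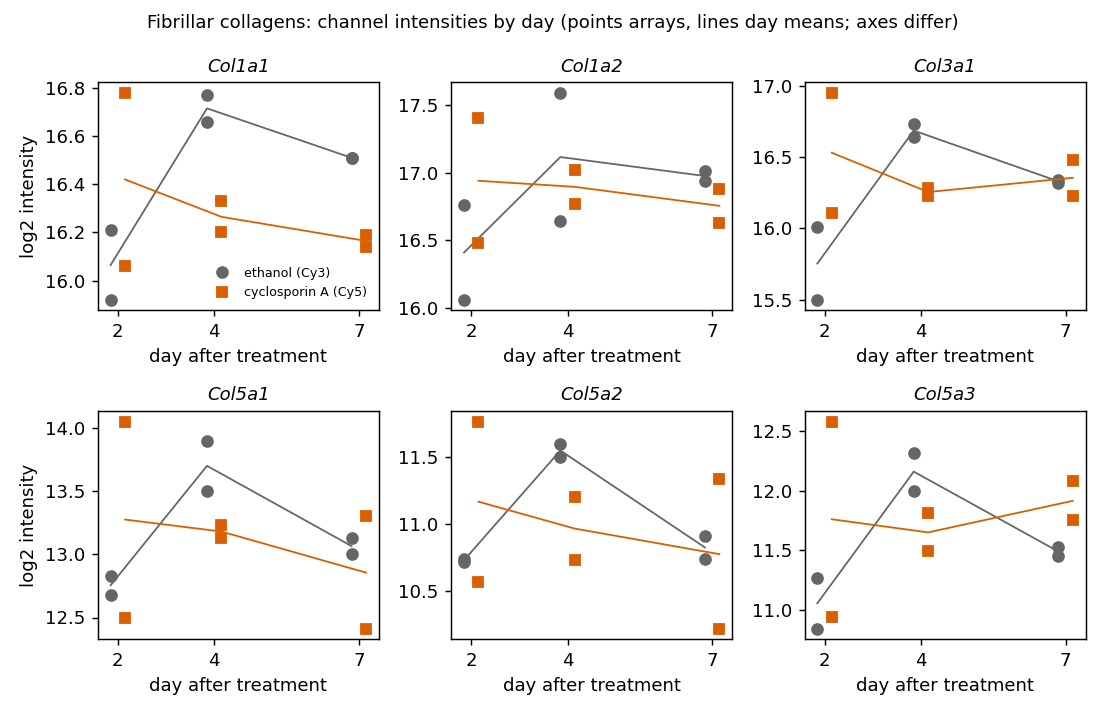
Log2 intensity of 6 fibrillar collagen genes in the ethanol channel (grey circles) and the cyclosporin A channel (orange squares) against days after treatment; points are arrays, lines join day means, and each panel has its own vertical axis. The ethanol points of day 4 lie above those of day 2 for each gene but Col1a2, whose lower day 4 value of 16.64 is under the higher day 2 value of 16.76, and the cyclosporin A points of day 2 are far apart, as for Col5a1 at 14.05 and 12.50.

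At day 7 Col11a1 stood out from the other collagens. Col11a1 encodes the alpha 1 chain of type XI collagen, a fibril-nucleating collagen best known from cartilage, and its ratio was 2.82 and 3.66, about 9.45-fold at the mean. Col24a1, a fibrillar chain with low signal, had a much smaller ratio, which at day 7 is only a bound: it passed the filter through the cyclosporin A channel alone, and under the stricter filter it had no value. These 2 genes were the only collagens called at day 7 (limma, adjusted p under 0.05), 2 of 33 (6.06%) against 2.99% of all genes. Since Col24a1 entered through the channel in which it was higher, no excess is read from that count. The stricter filter asks for both channels on all arrays. Under it 1 collagen, Col11a1, was called, among 371 of all genes. Both were higher, as were 2.35% of all genes, and no collagen was called lower, against 0.642%. A further 5, Col4a1, Col6a1, Col8a1, Col16a1 and Col26a1, had an unadjusted p under 0.05 only, making 21.2% of collagens against 22.1% of all genes.

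The ratio of Col11a1 was 0.31 and 0.15 at day 2 and 0.85 and 0.36 at day 4, above 0 on every array, and the day 7 arrays lay above the other 4 with no overlap. Its ethanol intensity stayed between 7.77 and 8.18 on the log2 scale. In the cyclosporin A channel it went from 8.22 and 7.93 at day 2 through 8.71 and 8.4 at day 4 to 11 and 11.67 at day 7. The day 7 mean was 3.24 ± 0.22 (SE, n = 2; limma, Benjamini-Hochberg adjusted p = 0.00121), and the call held in 15 of 15 alternative settings, with adjusted p between 0.000878 and 0.0074.

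The difference of Col11a1 from the earlier days was also called. The ratio was 3.01 ± 0.30 higher at day 7 than at day 2 (adjusted p = 0.0177; 3.03% of collagens and 0.264% of all genes were called) and 2.64 ± 0.30 higher than at day 4 (adjusted p = 0.0358; 0.202% of all genes). The first call held in 8 of 14 alternative settings and the second in 2 of 14. Without replicate 1 or 2 of day 2 the difference from day 2 had an adjusted p of 0.0937 or 0.0991, and without either array of day 4 it was 0.0654. The difference from day 4 kept its call without day 7 replicate 1 (adjusted p = 0.029) and lost it without any other single array, at 0.0583 to 0.419. In the cyclosporin A channel alone Col11a1 was 3.26 ± 0.25 higher at day 7 than at day 2 (adjusted p = 0.00157), the only collagen called there (0.918% of all genes were), and in the ethanol channel its difference was 0.26 ± 0.14 (adjusted p = 0.528).

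A second Col11a1 probe, which was above background in 1 channel of 1 array only and did not pass the filter, gave a day 7 mean of 0.31. Markers of the growing hair follicle were also followed beside Col11a1: the median of 10 follicle matrix and sheath markers was 0.32 and 0.18 at day 2, 0.91 and 0.96 at day 4, and 4.52 and 4.13 at day 7. None of them was above background in ethanol skin on all 6 arrays, and Krt33a, Krt34 and Shh were so on 0, having passed the filter only through the cyclosporin A channel, so that these ratios and the list's medians are not exact levels and no count of calls is drawn from them. Their part in the Col11a1 result was not tested. Acan, the cartilage proteoglycan aggrecan, was also higher at day 7, by 1.47 ± 0.19 (adjusted p = 0.0172), and it was the only one of the 4 cartilage markers tested that was called. Among all genes 2.35% were called higher. Col2a1 was at -0.20 ± 0.24 and Comp, a further cartilage matrix protein, at -0.56 ± 0.14, and neither passed.

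Col24a1 measured 0.77 and 0.73 at day 2, 0.74 and 0.35 at day 4, and 0.62 and 0.80 at day 7. All 6 arrays were above 0, and the days overlapped. Its ethanol signal was well above background on 1 of 6 arrays, at day 4, and on neither array of day 2 or day 7. The ratio there is read as a bound, of 1.68-fold at day 2 and 1.64-fold at day 7 after loess. Such a bound sets the brighter group's mean against a floor. On each array the floor is the dim probe's own signal or, if that is higher, the faintest signal still read as well above background. For Col24a1 the floor was its own mean signal, 6.21 at day 2 and 6.7 at day 7. Each bound therefore equals the measured mean ratio and shares its error. Without swapped dyes the bound is open to dye bias. It also rests on loess: with median centring the log2 ratio was 0.31 at day 2, 0.49 at day 7 and 0.34 on average over the days. The fitted day 7 mean was 0.71 ± 0.13 with an adjusted p of 0.0465, a call that held in 2 of 14 alternatives: leaving out any 1 array gave adjusted p of 0.0622 to 0.231. Its second probe, not above background on any array, gave 0.01 at day 7.

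Averaged over the 3 days, Col11a1 (1.36 ± 0.12, adjusted p = 0.00679) and Col24a1 (0.67 ± 0.08, adjusted p = 0.0102) were again the only collagens called, against 13.1% of all genes; the Col24a1 value sets cyclosporin A against an ethanol signal near background. Both averages lost the call without day 4 replicate 2, at adjusted p of 0.0577 and 0.0678, and without day 2 replicate 2 the average called 4 collagens, adding Col4a1 and Col5a3. Over single arrays, 4 of 33 collagens (Col4a5, Col11a1, Col23a1 and Col24a1; 12.1%) were above 0 on all 6 after loess, against 15.7% of all genes, and 1 (Col28a1; 3.03%) was below 0 on all 6, against 8.14%. With median centring Col4a5 was above 0 on 2 of 6 arrays. A dimmer Col23a1 probe past the filter was below 0 on all 6 arrays after loess.

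**Figure D5:**
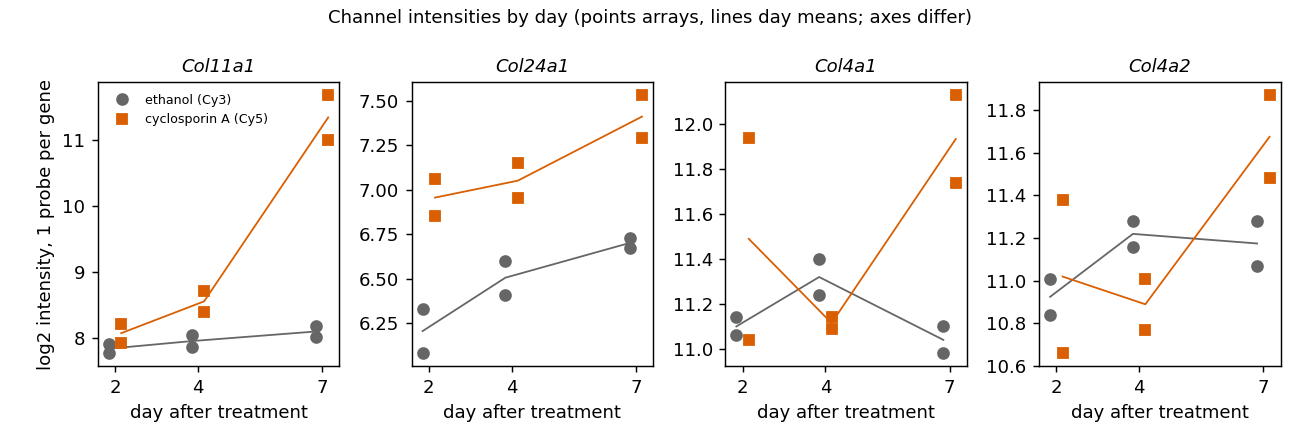
Log2 intensity of Col11a1, Col24a1, Col4a1 and Col4a2 in the ethanol channel (grey circles) and the cyclosporin A channel (orange squares) against days after treatment; points are arrays, lines join day means, and each panel has its own vertical axis. Col11a1 reaches 11 and 11.67 with cyclosporin A at day 7 while ethanol stays at or below 8.18, and both type IV chains read higher with cyclosporin A at day 7, differences that were not called.

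The promoters of the collagens that were called and of bulk dermal collagens from the same class are shown because the pathway that cyclosporin A blocks ends in NFAT factors. Each is up to 250 bases that end just before the first base of the RefSeq gene (189 for Col11a1, 250 for the others), on the plus strand of GRCm38.p6, in lower case, with the NFAT core GGAAA (or TTTCC, the same motif on the other strand) in capitals. Col11a1 lies at chr3:114030290-114030478, Col24a1 at chr3:145292222-145292471, Col1a2 at chr6:4505368-4505617 and Col3a1 at chr1:45311288-45311537.
Col11a1: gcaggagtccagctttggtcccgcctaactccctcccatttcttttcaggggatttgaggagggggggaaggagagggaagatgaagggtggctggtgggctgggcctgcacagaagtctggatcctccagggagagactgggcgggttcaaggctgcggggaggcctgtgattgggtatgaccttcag
Col24a1: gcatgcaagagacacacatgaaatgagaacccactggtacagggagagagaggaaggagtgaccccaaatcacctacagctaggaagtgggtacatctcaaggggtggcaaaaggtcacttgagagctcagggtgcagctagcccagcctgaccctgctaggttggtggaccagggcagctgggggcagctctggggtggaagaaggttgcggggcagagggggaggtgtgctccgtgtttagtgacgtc
Col1a2: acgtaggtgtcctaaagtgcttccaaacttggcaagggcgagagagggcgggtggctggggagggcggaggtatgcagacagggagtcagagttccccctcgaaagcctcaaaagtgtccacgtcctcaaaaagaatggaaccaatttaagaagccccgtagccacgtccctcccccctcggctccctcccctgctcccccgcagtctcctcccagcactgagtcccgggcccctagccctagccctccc
Col3a1: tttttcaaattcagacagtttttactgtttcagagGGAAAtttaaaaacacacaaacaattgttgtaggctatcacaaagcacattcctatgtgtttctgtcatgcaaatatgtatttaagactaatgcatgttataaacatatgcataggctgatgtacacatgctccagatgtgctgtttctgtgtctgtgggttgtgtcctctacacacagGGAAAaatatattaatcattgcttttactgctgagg
Only the Col3a1 window of these 4 held the letters of the NFAT core, with 2 matches, 215 and 36 bases before the start. Over windows of 250 bases the core was present in 55.6% of 32851 RefSeq promoters and in 15 of the 30 collagen promoters in the table (50%). Col11a1 held a GC box, GGGCGG, 49 bases before the start, and a CCAAT box (read as ATTGG) at 18 bases, and Col1a2 held both motifs too, with CCAAT at 109 bases. A GC box on either strand was present in 63.3% of collagen promoters and 32.7% of all, and CCAAT in 33.3% and 33.8%. Col3a1 held TATAAA at 117 bases, which 13.3% of collagen promoters and 12.4% of all held. The Tcf/Lef core CTTTG was found in Col11a1 at 177 bases and, as CAAAG, in Col3a1 at 175 bases, and in 56.7% of collagen promoters and 48.6% of all. The Col24a1 window held none of these motifs. A match is a description of letters and not a measured site.

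The class medians of the basement membrane collagens lay between -0.11 and 0.18 on the 6 arrays, and within the class the main type IV pair had the highest ratios at day 7. Col4a1, which with Col4a2 makes the most widespread type IV trimer, measured 0.80 and -0.02 at day 2, -0.09 and -0.31 at day 4, and 0.64 and 1.15 at day 7. Col4a2 measured 0.54 and -0.35, then -0.14 and -0.50, then 0.41 and 0.59. Both were thus below 0 at day 4 after loess (0.39 and 0.25 after median centring) and above 0 at day 7 on each array. The day 7 means of 0.89 ± 0.22 and 0.50 ± 0.22 had adjusted p of 0.0856 and 0.232 (limma) and were not called. Both were called under median centring, as were 4964 of all 22759 genes tested. Col4a1 was also called without either array of day 2 (adjusted p = 0.047).

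In log2 intensity, Col4a1 at day 7 measured 11.10 and 10.98 in ethanol skin and 11.74 and 12.13 in cyclosporin A skin, a difference that was not called. A dimmer probe of Col4a1 gave 0.27 and 0.67 at day 7, and one of Col4a2 gave 0.07 and 0.49. Col4a1 and Col4a2 are neighbours on chromosome 8 that are read in opposite directions. In RefSeq (GRCm38.p6) Col4a1, on the minus strand, starts at 11312889, and Col4a2, on the plus strand, starts at 11312805. The genes thus overlap at their starts. After loess the ratios of the pair had the same sign on each of the 6 arrays.

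The other type IV chains, whose trimers are more restricted, stayed near 0. Col4a3 lay between -0.51 and 0.20 on the 6 arrays, Col4a4 between -0.09 and 0.19, Col4a5 between 0.02 and 0.27 and Col4a6 between -0.08 and 0.26. In ethanol skin Col4a3 was well above background on 1 of 6 arrays and Col4a5 on 0. Col7a1 was below 0 on 5 of 6 arrays after loess but at 0.60 and 0.40 for days 4 and 7 after median centring; the loess values were -0.39 and -0.11 at day 4 and -0.11 and -0.59 at day 7. Its day 7 mean of -0.35 ± 0.26 did not pass (adjusted p = 0.459).

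Types XV and XVIII are basement membrane collagens that carry sugar chains, and the end of type XVIII is released as endostatin. Col15a1 measured 0.57 and -0.24, then 0.04 and -0.16, then -0.03 and 0.69. Col18a1 measured 0.18 and -0.09, then 0.04 and 0.07, then -0.55 and 0.35. Their day 7 arrays fell on opposite sides of 0. The class medians for the basement membrane chains were 0.09, -0.06 and 0.14 at days 2, 4 and 7 after loess, against 0.04, 0.04 and 0.03 for all genes, and 0.77, 0.39 and 0.50 with median centring.

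The minor collagens had medians of 0, -0.24 and 0.07 at the 3 days after loess, and 0.43, 0.21 and 0.25 with median centring. Type VI collagen forms beaded filaments around cells. Col6a1 measured 0.74 and -0.09, then -0.25 and -0.34, then 0.33 and 0.72, the same order of days as Col4a1. Its day 7 mean was 0.53 ± 0.21 (adjusted p = 0.202). Col6a2, its partner chain, gave -0.48 and 0.79 at day 7, so that the arrays disagreed on this chain.

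Col16a1, a fibril-associated chain, was the lowest minor collagen at day 7, at -0.99 and -0.19, and measured -0.42 and -0.43 at day 4. At day 2 it had a value on replicate 2 only, -0.21, since the spot on replicate 1 was marked as an outlier and left out. Its day 7 mean of -0.59 ± 0.20 did not pass (adjusted p = 0.173), and it was 0.12 under median centring. Col8a2 was below 0 on 5 of 6 arrays after loess (3 of 6 after median centring), at -0.15 and -0.77 at day 7, and its partner Col8a1 was above 0 on both arrays of day 7, at 0.57 and 0.35, with a mean of 0.46 ± 0.15 (adjusted p = 0.155).

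Col26a1, a small secreted chain, measured 0.10 and -0.20, then 0.29 and -0.12, then 0.24 and 0.77. Its day 7 mean was 0.50 ± 0.18 (1.42-fold), set against an ethanol signal not well above background, and 0.45 after median centring. That difference was not called (adjusted p = 0.167). Col14a1, which binds to type I fibrils, measured 1.11 and -0.37 at day 2 and -0.33 and 0.23 at day 7. The cartilage chain Col9a2 lay between -0.12 and 0.30 on the 6 arrays and the transmembrane chain Col23a1 between 0.02 and 0.16. A dimmer Col23a1 probe past the filter was below 0 on all 6 arrays, from -0.92 to -0.02. With ethanol it was well above background on 2 of 6. Col28a1, well above background on 0 of 6 arrays with ethanol and 3 of 6 with cyclosporin A, lay between -0.22 and -0.03. The fibrillar chains Col11a2, between -0.13 and 0.27, and Col27a1, between -0.08 and 0.26, also stayed near 0 on their brightest probes. A dimmer Col11a2 probe past the filter lay between 0.09 and 0.64, with a day 4 mean of 0.56. With ethanol it was well above background on 1 of 6 arrays.

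At day 7, 15 of 33 collagens (45.5%) were above 0 on both arrays, against 38.3% of all genes, and 9 (27.3%) were below 0 on both, against 28.9%, all after loess. With median centring the counts were 20 (60.6%, against 50.3%) and 5 (15.2%, against 23.1%). Col1a1, Col1a2, Col2a1 and Col7a1 were among the 9 after loess, and their day 7 means were 0.65, 0.83, 0.30 and 0.40 after centring. The ratios of the day 7 arrays correlated at r = 0.78 over 33 collagens sharing the same RNA pairs, but at r = 0.37 without Col11a1, and those of the day 4 arrays at r = 0.46 and, without Col11a1, 0.37. For all genes tested these values were 0.59 and 0.43.

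Of 12 collagens with 2 or more probes past the filter, the probes of 5, 8 and 8 gave the same sign at days 2, 4 and 7, and they spread by a median of 0.38, 0.38 and 0.20. The 3 Col1a1 probes at day 4 gave -0.45, -0.68 and 0.04, the dimmest being the one above 0. The values above are those of the brightest probe of each gene.

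Genes that make, hold, bind and cut collagen were read from 6 lists. Of their 86 genes tested, 3 were called higher at day 7 (3.49%, against 2.35% of all genes) and 4 lower (4.65%, against 0.642%), by limma with adjusted p under 0.05. With median centring 16 were called higher and 1 lower, while 4964 of all 22759 genes tested were called in either direction. Of 29 genes of collagen processing and crosslinking tested, 0 rose and 1 fell: Pcolce2, an enhancer of procollagen trimming, at -0.76 ± 0.11 (adjusted p = 0.0227), and -0.12 after median centring. Ppib, which encodes cyclophilin B, measured 0.45 and -0.07, then -0.02 and 0.26, then -0.21 and 0.20, with a day 7 mean of 0.00 ± 0.17 after loess and 0.77 after centring. The median of the processing list was 0.50 and -0.16 on the arrays of day 2, so that it parted there in the same direction as the fibrillar chains, and -0.04 at day 7.

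Of 14 genes of collagen degradation, Adamts4, a protease of aggrecan, rose at day 7 by 1.45 ± 0.20 (adjusted p = 0.0198), its ethanol signal being well above background on 2 of 6 arrays, and Mmp2, a gelatinase, fell by 0.90 ± 0.12 (adjusted p = 0.0177). Of 14 fibril-binding proteins and regulators, 0 rose and 1 fell, Tnxb (tenascin X), at -1.43 ± 0.16 (adjusted p = 0.0115). Of all genes, 2.35% were called higher at day 7 and 0.642% lower. After loess Tnxb was below 0 on all 6 arrays, from -1.69 to -0.67, as was Mmp2, from -1 to -0.65. After median centring the means at days 2, 4 and 7 were 0.04, -0.51 and -0.89 for Tnxb and -0.04, 0.00 and -0.28 for Mmp2. Of 7 collagen receptors 0 were called (limma; 1 had an unadjusted p under 0.05), and the largest day 7 values were -0.71 ± 0.27 for Lair1 and -0.29 ± 0.19 for Ddr2.

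Of 11 basement membrane partners, Lamb1, a widespread laminin chain, rose by 0.77 ± 0.13 (adjusted p = 0.034), and Lamb3, a chain of the laminin under keratinocytes, was at -1.29 ± 0.25 (adjusted p = 0.0477), a fall. Nid2, which links laminin to type IV collagen, was at 1.34 ± 0.27 and did not pass (adjusted p = 0.0525). Of 11 genes of TGF beta signalling to collagen genes 1 rose, Smad2, by 0.55 ± 0.11 (adjusted p = 0.0491), and 0 fell. At day 7, 2.35% of all genes were called higher and 0.642% lower. In the TGF beta list 8 of 11 had an unadjusted p under 0.05 (limma), against 22.1% of all genes. Averaged over the days, 4 of them were called higher and 1 lower, where 13.1% of all genes were called. The medians of these last 2 lists at day 7 were 0.19 and -0.02, against 0.03 for all genes.

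Other cell types were followed at day 7 beside the collagens. None of 14 fibroblast markers was called (limma; 2 had an unadjusted p under 0.05), with a median of -0.14. None of 10 endothelial, 7 smooth muscle and pericyte, 5 Schwann cell, 6 macrophage or 10 adipocyte markers was called, with medians of -0.12, -0.55, 0.04, -0.42 and 0.28, and 2, 4, 1, 2 and 3 of them had an unadjusted p under 0.05. Of 11 skeletal muscle markers 3 were called lower, with a median of -0.72. Of the keratinocyte markers 1 of 8 basal and 1 of 5 suprabasal genes were called lower, with medians of -0.36 and -0.93. Among all genes 0.642% were called lower. These medians are after loess. After median centring, where that of all genes was 0.17, all of them but the suprabasal one (-0.15) were above 0, at 0.55 for fibroblast, 0.21 for endothelial, 0.24 for smooth muscle and pericyte, 0.16 for Schwann cell, 0.17 for macrophage, 1.06 for adipocyte, 0.15 for skeletal muscle and 0.45 for basal keratinocyte markers. The part of these lists in the day 7 collagen ratios was not tested.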

How the data were processed

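Expression was measured on dual-colour Agilent arrays of mouse back skin RNA. The deposited scanner files hold median pixel intensities per spot in both channels, produced, per the submitters' processing notes, by Agilent Feature Extraction, version 9.1. The authors' deposited value table holds log10 ratios of Cy5 over Cy3, which were identical to those in the scanner files. Background was corrected with normexp at an offset of 50 on the median intensities, and loess was run within arrays (limma 3.58.1, R 4.3.3), controls (1639 of 45018 spots) and outlier spots (15 to 126 per array) being left out, and 0 spots were saturated. The array's genome build is not given in the sources used here. Probes were named by accession through a RefSeq table of GRCm38.p6 (22951 probes), by symbol (10) or by synonym (57), and 18156 had no name. The brightest probe past the filter (27945 probes passed) stood for a gene. Probes were called well above background by the scanner software.

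One mean per day was fitted with limma to the log2 ratios of all 6 arrays, and tests were made of each day, of the average and of the change of the ratio between days, with Benjamini-Hochberg adjustment over all genes. Channels were tested singly after Aquantile normalization. The procedure was tested on simulated data. Alternatives were the processed signals, the deposited ratios, median centring, scaling between arrays, other filters, the mean of probes, the quantile of each channel, a replicate block, the arrays of a day alone and leaving out each array; where that leaves a day with 1 array, it is assumed to vary like the others. Named genes were those called, the 2 highest and 2 lowest of each class at each day, a fixed set (Col1a1, Col1a2, Col3a1, Col4a1, Col4a2, Col6a1, Col7a1, Col18a1, Ppib) and, per pathway list, the called genes or else the 2 with the largest day 7 ratio; others (Col2a1, Col5a3, Col6a2, Col8a1, Nid2, Comp) were chosen after their values were seen. The members and lists were chosen with earlier results of these data known. The titles number replicates 1 and 2, while each description reads replicate 1; the titles were used. Deviations from each gene's day mean correlated between same-numbered arrays at 0.01 (days 2 and 4), -0.28 (days 2 and 7) and -0.02 (days 4 and 7). The numbers were therefore not taken to pair samples. Between days 2 and 7 the ratios of all genes correlated at 0.22 for the replicate 1 arrays and 0.13 for the replicate 2 arrays. Day 2 replicate 1 correlated with day 7 replicate 2 at 0.45, and day 2 replicate 2 with day 7 replicate 1 at 0.26.

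Sequences come from a RefSeq promoter table of GRCm38.p6, which held 30 of the 37 genes, and each window printed was ended before the first base of the RefSeq gene.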

Additional observations from a re-analysis of the deposited data

Results flagged for a closer look

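Col11a1 was the only collagen whose cyclosporin A to ethanol ratio differed between days by test. Its log2 ratio was 2.64 higher at day 7 than at day 4 (limma, adjusted p = 0.0358) and 3.01 higher at day 7 than at day 2 (adjusted p = 0.0177), with both day 7 arrays above the other 4. Day 7 was on a slide of its own, so day and slide cannot be told apart. With 2 arrays a day, no array could be examined as an outlier within its day.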

How the results depend on the processing

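Col11a1 at day 7 kept its call under every alternative tried, with values of 2.82 to 4.01. Median centring raised the calls among all 22759 genes tested from 680 to 4964 at day 7. On average over days it raised them from 2979 to 13601, so its collagen counts are to be read beside these. The count of collagens called at day 7, 2 as reported, was 1 with processed signals, deposited ratios, scaling between arrays, the stricter filter and the arrays of the day alone, 6 with median centring, and 1 to 2 leaving out single arrays (without either day 2 array the 2 were Col11a1 and Col4a1). With median centring 17 were called at day 2 (8719 of all genes were) and 22 on average over days, where the stricter filter gave 1 and leaving out single arrays 0 to 4. The difference between days 7 and 4 called 0 with processed signals, deposited ratios, median centring, scaling between arrays, the stricter filter and no filter, and 0 to 1 leaving out arrays, and that between days 7 and 2 called 0 with scaling and 0 to 1 leaving out arrays. The replicate block, on numbers not shown to pair samples, gave 1 call at day 7 and 0 in the differences of day 7 from days 4 and 2. It left the other counts of calls within 1.5 times.

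With the mean of probes the fibrillar median was 0.27 at day 2 and -0.22 at day 4. Class medians moved with median centring to 0.23 and 0.49 (fibrillar, days 4 and 7), 0.77, 0.39 and 0.50 (basement membrane) and 0.43, 0.21 and 0.25 (minor, days 2, 4 and 7). At day 7 the fibrillar median, 0.03 as reported, was -0.01 with processed signals and with deposited ratios, -0.12 with the stricter filter and 0.14 to 0.16 leaving out arrays. The basement membrane median there was 0.33 with processed signals and with deposited ratios, 0.17 with the stricter filter and with the mean of probes, and 0.16 to 0.17 leaving out arrays, and the minor median was 0.01 with processed signals, 0.03 with deposited ratios and 0.02 to 0.07 leaving out arrays. The minor median was 0.21 at day 2 with the stricter filter, -0.07 to 0.03 at day 2 leaving out arrays and -0.22 to -0.09 at day 4.

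Signs of collagens turned under median centring at day 2 for Col4a3 (-0.22), Col4a5 (-0.06), Col7a1 (0.77), Col8a2 (0.38), Col9a2 (0.16), Col16a1 (0.70) and Col27a1 (-0.12), at day 4 for Col1a1 (0.68), Col1a2 (0.97), Col2a1 (0.23), Col3a1 (0.70), Col4a1 (0.39), Col4a2 (0.25), Col5a1 (0.28), Col5a2 (0.01), Col5a3 (0.14), Col6a1 (0.30), Col6a2 (0.22), Col7a1 (0.60), Col8a1 (0.22), Col13a1 (0.21), Col14a1 (0.06), Col15a1 (0.44), Col16a1 (0.44), Col26a1 (-0.01) and Col27a1 (-0.06), and at day 7 for Col1a1 (0.65), Col1a2 (0.83), Col2a1 (0.30), Col4a5 (-0.12), Col5a1 (0.46), Col5a2 (0.44), Col7a1 (0.40), Col9a3 (-0.07), Col11a2 (-0.02), Col14a1 (0.48), Col16a1 (0.12), Col18a1 (0.58) and Col25a1 (-0.11). Of the collagens named by the rule, with processed signals and with deposited ratios Col18a1 turned at days 2 (-0.02) and 7 (0.09) and Col3a1 at day 7 (-0.07), and Col4a3 at day 7 was 0.12 and 0.15. The mean of probes turned Col11a2 (0.18) and Col18a1 (-0.02) at day 2 and Col23a1 (-0.10) at day 4, and Col11a2 was 0.00 after scaling. The cause of these moves was not tested.

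Of the collagens named by the rule for a day, some turned sign when 1 array of that day was left out. At day 2 the ranges were Col1a1 -0.15 to 0.86, Col1a2 -0.28 to 1.34, Col4a1 -0.02 to 0.80, Col4a2 -0.35 to 0.54, Col4a4 -0.09 to 0.10, Col6a1 -0.09 to 0.74, Col7a1 -0.65 to 0.44, Col11a2 -0.04 to 0.04, Col14a1 -0.37 to 1.11, Col15a1 -0.24 to 0.57, Col18a1 -0.09 to 0.18 and Col27a1 -0.04 to 0.26. At day 4 they were Col1a2 -0.57 to 0.13 and Col14a1 -1.13 to 0.09, and at day 7 Col3a1 -0.08 to 0.14 and Col18a1 -0.55 to 0.35. Collagens not named for that day turned too. Among them were Col2a1, Col5a1, Col5a2, Col5a3, Col6a2 and Col8a2 at day 2, and Col15a1 and Col26a1 at day 4. At day 7 they included Col5a1, Col5a2, Col6a2, Col14a1 and Col15a1.

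With 2 arrays a day the number of arrays, and for Col24a1, Col26a1 and other chains near background the signal, limits the calls.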
